A study of Mus musculus with 6 samples.

Results

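Cells named here as normal luminal epithelial cells of the mammary gland were a small population in single-cell libraries of mouse 4T1 breast tumours. They were chosen by their own readout, as barcodes with at least 200 detected genes that carried at least 3 unique molecular identifiers (UMIs, 1 for each captured messenger RNA) of Wfdc18, Prlr, Ptn and Clca3a2 together. The rule further allowed at most 2 UMIs of the keratinocyte genes Krt5, Lgals7, Krt1 and Krtdap, at most 1 UMI of the macrophage genes C1qa, C1qb and C1qc, and at most 1 UMI of the collagen genes Col1a1 and Col3a1. A total of 77 of the 6730 barcodes with 200 genes met the rule, 1 from FVIO-MHT libraries and 76 from PBS libraries. The 4 marker genes are therefore given as a description of the choice and are not tested.

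The study grew 4T1 cells, a mouse mammary carcinoma line, as tumours in Balb/c mice and profiled dissociated whole tumours by Drop-seq, a droplet method for single-cell messenger RNA. The FVIO-MHT group (mild magnetic hyperthermia, 3 libraries) had FVIOs, ferrimagnetic vortex nanorings, placed in the tumour at 0.1 mg per cm3 of its volume, a field alternating at 365 kHz for 10 min, and 24 hours before collection. The PBS group (3 libraries) is labelled as given PBS, with the same 24 hours. The same protocol is given under every one of the 6 samples, so it cannot be told from the labels whether PBS tumours met the field, and no label ties the libraries to separate mice. The tumours are a transplanted line and carry no transgene named in the labels, so luminal cells other than those of the line would be cells of the host.

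The ducts and lobules of the mammary gland have an inner luminal layer, marked by the keratins Krt8, Krt18 and Krt19, and an outer basal layer of contractile cells. Luminal cells fall broadly into hormone-sensing cells, which carry receptors for oestrogen, progesterone and prolactin and signal to their neighbours through factors such as amphiregulin, and secretory or alveolar progenitor cells, which give rise to the milk-making cells. Prolactin binds its receptor, encoded by Prlr, and acts through the kinase JAK2 and the transcription factor STAT5. Ptn encodes pleiotrophin, a secreted growth factor that binds heparin. Wfdc18 encodes a small secreted protein with a whey acidic protein domain, and Clca3a2 belongs to the family of calcium-activated chloride channel regulators.

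The marker genes lie on different chromosomes. In the GENCODE annotation of GRCm38, Ptn spans chr6:36714929-36810220 on the minus strand, Prlr chr15:10177238-10349180 on the plus strand, Wfdc18 chr11:83709015-83711348 on the plus strand and Clca3a2 chr3:144796559-144819494 on the minus strand. The promoters below come from RefSeq on GRCm38.p6 and run from 250 bases before to 50 bases after a gene's start. They are shown because Ptn and Prlr led 1 kind of luminal cell and Wfdc18 the other, and because Areg, which the rule did not use, was high in the Prlr cells. Capitals mark a match to TTCNNNGAA, the palindrome that STAT factors bind, or to TATAAA, the core of the TATA box, each searched on both strands. The positions are chr6:36810130-36810429 on the minus strand for Ptn, chr15:10223656-10223955 on the plus strand for Prlr, chr5:91139349-91139648 on the plus strand for Areg and chr11:83708754-83709053 on the plus strand for Wfdc18.
Ptn: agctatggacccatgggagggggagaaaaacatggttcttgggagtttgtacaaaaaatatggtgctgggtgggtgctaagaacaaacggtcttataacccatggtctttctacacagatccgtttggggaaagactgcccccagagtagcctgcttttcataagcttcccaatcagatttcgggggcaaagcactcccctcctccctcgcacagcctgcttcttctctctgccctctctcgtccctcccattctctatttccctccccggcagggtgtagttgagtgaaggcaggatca
Prlr: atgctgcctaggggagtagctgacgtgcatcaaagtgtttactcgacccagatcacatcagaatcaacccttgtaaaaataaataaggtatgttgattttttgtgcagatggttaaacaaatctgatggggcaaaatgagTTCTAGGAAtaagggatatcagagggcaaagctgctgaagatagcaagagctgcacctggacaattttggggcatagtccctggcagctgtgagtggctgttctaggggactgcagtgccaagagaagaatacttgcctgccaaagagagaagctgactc
Areg: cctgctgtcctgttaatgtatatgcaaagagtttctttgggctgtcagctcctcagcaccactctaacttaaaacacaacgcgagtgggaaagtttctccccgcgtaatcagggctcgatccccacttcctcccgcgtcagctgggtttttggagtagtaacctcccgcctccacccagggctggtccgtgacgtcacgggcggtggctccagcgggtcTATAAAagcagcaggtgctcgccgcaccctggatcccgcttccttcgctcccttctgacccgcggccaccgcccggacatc
Wfdc18: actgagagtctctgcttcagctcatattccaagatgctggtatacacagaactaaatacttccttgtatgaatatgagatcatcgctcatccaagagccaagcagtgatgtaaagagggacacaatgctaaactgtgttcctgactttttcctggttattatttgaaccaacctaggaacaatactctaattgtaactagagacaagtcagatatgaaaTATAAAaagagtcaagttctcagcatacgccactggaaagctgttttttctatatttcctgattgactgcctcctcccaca

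The Prlr promoter shown is the only one of its several RefSeq promoters that held TTCNNNGAA, 110 bases before the start. It was picked for that match and lies inside the gene span given above. The Prlr promoter at the start of that span, chr15:10176988-10177287, held neither motif. Of 32851 mouse promoters of this length, 8.30% held TTCNNNGAA and 13.6% held TATAAA. Both Areg and Wfdc18 held TATAAA 31 bases before the start. The Ptn promoter held neither motif. Among the 15 genes highest in luminal cells outside the rule, 11 had a promoter in the table. A promoter of 4 of them (Cited1, F3, Fam25c and Xist) held TATAAA and that of Vill held TTCNNNGAA. These are counts of genes, some with several promoters, while the shares above are of promoters. TATAAA lay 29 bases before the start in Fam25c, and 13 or 115 bases before it in Cited1 promoters. On the opposite strand it lay 115 bases before the start in Xist and 43 bases after it in F3. The Vill match lay 41 bases after the start. A match is a description of the letters and not of binding.

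The luminal cells were found almost wholly in PBS libraries. FVIO-MHT replicates 1, 2 and 3 held 0 of 332, 1 of 1049 and 0 of 2325 cells, against 22 of 1080, 22 of 1462 and 32 of 482 cells in PBS replicates 1, 2 and 3. As shares, FVIO-MHT replicate 2 had 0.0953% (95% Clopper-Pearson interval 0.00241 to 0.530%), and the counts of 0 have intervals that end at 1.10% for FVIO-MHT replicate 1 and at 0.159% for FVIO-MHT replicate 3. The PBS shares were 2.04% (1.28 to 3.07%), 1.50% (0.945 to 2.27%) and 6.64% (4.59 to 9.24%). The mean share was 0.0318% ± 0.0550 (SD, n = 3) in FVIO-MHT libraries and 3.39% ± 2.82 (SD, n = 3) in PBS libraries, a difference of -3.36 percentage points. Without PBS replicate 3 the difference was -1.74 points. Every PBS share lay above every FVIO-MHT share, and the share of PBS replicate 3 lay above the intervals of both other PBS libraries. Since the population was proposed with this difference known, it is a description with no test, and intervals and limits from a count of 0 cover counting error only.

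**Figure D1:**
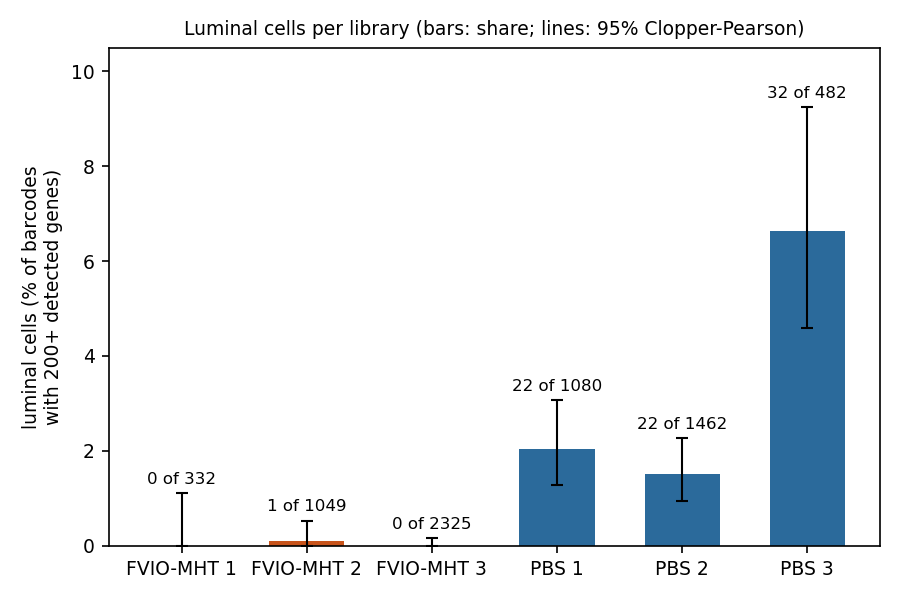
Share of luminal cells in each library, as a percentage of barcodes with at least 200 detected genes. Bars are shares, lines are 95% Clopper-Pearson intervals and labels give the counts. The FVIO-MHT libraries lie between 0 and 0.0953%, and the PBS libraries lie between 1.50 and 6.64%.

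The libraries also differed in how many epithelial cells of any kind they held. Other epithelial cells, defined by at least 3 UMIs of Krt8, Krt18, Krt19 and Epcam together, at most 2 marker UMIs and the same upper limits, numbered 0, 110 and 588 in FVIO-MHT replicates 1, 2 and 3, against 175, 587 and 93 in PBS replicates 1, 2 and 3. FVIO-MHT replicate 1, with no epithelial cell by either rule, therefore says nothing of the luminal share among epithelial cells. Among luminal and other epithelial cells together, luminal cells were 0.901% in FVIO-MHT replicate 2 (0.0228 to 4.92%) and 0 of 588 in FVIO-MHT replicate 3 (interval up to 0.625%). The same share was 11.2% (7.13 to 16.4%), 3.61% (2.28 to 5.42%) and 25.6% (18.2 to 34.2%) in PBS replicates 1, 2 and 3. The intervals of FVIO-MHT replicate 2 and PBS replicate 2 overlapped. Cells with at least 3 UMIs of the keratinocyte genes numbered 0, 25 and 2 in the FVIO-MHT libraries, against 1, 18 and 38 in the PBS libraries, so the library richest in luminal cells also held the most of these. How much of the surrounding gland and skin each piece of tissue held is not given in the labels, and the treatment cannot be told apart from it.

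The limit on collagen removed several barcodes that had passed the marker minimum. Of 89 barcodes with at least 3 marker UMIs, 83 also passed the keratinocyte limit and the C1q limit, and 77 passed the collagen limit. In FVIO-MHT replicate 3 all 4 barcodes with at least 3 marker UMIs were lost at the collagen limit, against 0 of 22 in each of PBS replicates 1 and 2. Thinned to 300 UMIs per cell, which leaves out shallower cells, the FVIO-MHT libraries had shares of 0, 0 and 0.0602%, against 2.05, 1.38 and 6.11% for PBS. In barcodes under 200 genes, which can hold free RNA and small cells alike, the 4 markers stood at 5.71, 28.5 and 10.9 CPM (UMIs per 1e6 UMIs) in FVIO-MHT libraries, against 47.9, 210.2 and 511 CPM in PBS libraries. Of these barcodes, 1, 5 and 3 in PBS replicates 1, 2 and 3 carried at least 3 marker UMIs. Among remaining cells, neither epithelial nor with keratinocyte genes, 0, 0.657 and 1.44% carried a marker UMI in the FVIO-MHT group, against 0.454, 1.92 and 5.96% in the PBS group, at median depths of 343 to 561 UMIs. In FVIO-MHT replicate 3, 18 of the 25 such cells were above the collagen limit. Pleiotrophin is also known from stromal cells, so a marker UMI in these cells need not be free RNA, and its source was not tested. In the luminal cells the 4 markers together stood at 13753, 17719 and 25543 CPM in PBS replicates 1, 2 and 3.

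Few cells lay close to the threshold. A total of 63 barcodes carried exactly 1 marker UMI, 7 carried 2, 4 carried 3 and 10 carried 4, against 5853 with none. In the PBS libraries the 6 barcodes with 2 marker UMIs had 774 CPM of Krt8 and no UMI of Areg or Spp1, and the 4 with 3 marker UMIs had 1728 CPM of Krt8, 432 CPM of Spp1 and no UMI of Areg. The 10 with 4 marker UMIs had 4569 CPM of Krt8 and 3215 CPM of Areg. Krt8 and Areg were lower in the barcodes with 2 or 3 marker UMIs than in those with 4. Median depths of the barcodes with 2, 3 and 4 marker UMIs were 833, 422.5 and 491 UMIs. Each level thus rests on few UMIs, and a count of 0 is not read as absence.

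The label was checked against luminal keratins, which the rule did not use. Of the 76 luminal cells of PBS libraries, 69 carried at least 3 UMIs of Krt8, Krt18, Krt19 and Epcam together. A UMI of Krt8 was found in 68, of Krt18 in 65, of Epcam in 61 and of Krt19 in 54. The other 7 barcodes had 0 to 2 UMIs of these genes at depths of 290 to 1135 UMIs, and 3 of them, all in PBS replicate 3, had none. Krt8 stood at 8007, 6674 and 5859 CPM in luminal cells of PBS replicates 1, 2 and 3, against 1809, 1268 and 1226 CPM in other epithelial cells. Krt19 stood at 2025, 2040 and 3684 CPM in luminal cells, against 49.6, 49.2 and 100.1 CPM in other epithelial cells. Epcam, a surface adhesion protein of epithelia, stood at 2402, 2477 and 3719 CPM in luminal cells, against 282, 945 and 969 CPM in other epithelial cells. The values did not overlap for any of the 3 genes, although other epithelial cells were chosen for carrying them, and these genes are left out of the test for that reason.

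Among basal genes, the contractile and basal keratin genes Acta2 and Krt17 had 0 UMIs in the luminal cells. Krt14 had 2 of 84046, Krt5, which the rule limits, had 2, and the skin and basal keratin gene Krt15 had 4, all in PBS replicate 3. The contractile gene Tagln went the other way, with 3 UMIs in luminal cells and 5 in other epithelial cells (ratio of pooled CPM 11.6, counting interval 1.80 to 59.5). Trp63, a basal transcription factor gene, had 1 and 7 UMIs (ratio 2.76, interval 0.0612 to 21.5). Of 12 basal genes, 6 had no UMI. The list summed to 0, 58.3 and 281 CPM in luminal cells, against 27.9, 135 and 269 CPM in other epithelial cells, which is not lower in PBS replicate 3. Whether they are normal cells of the host cannot be read from these genes alone.

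Marker levels varied widely between luminal cells. The marker sum ran from 3 to 138 UMIs, with a median of 12, at a median depth of 858.5 UMIs and 557.5 genes per cell. Median depth was close in the 3 PBS libraries, at 818, 852 and 874.5 UMIs. Ptn was present in 65 of 76 cells, Prlr in 57, Clca3a2 in 24 and Wfdc18 in 21. Ptn held 66.9% of the marker UMIs, a share of counts that is not adjusted for gene length, and led the other markers in 56 cells, whereas Wfdc18 led in 12. Ptn stood at 7866, 12386 and 17438 CPM in luminal cells of PBS replicates 1, 2 and 3, against 3.10, 6.15 and 12.5 CPM in other epithelial cells. Prlr stood at 2355, 3759 and 6035 CPM in luminal cells, against 0, 4.39 and 25.0 CPM in other epithelial cells. Wfdc18 stood at 2967, 991 and 702 CPM in luminal cells, against 0, 6.15 and 18.8 CPM in other epithelial cells, and Clca3a2 at 565, 583 and 1368 CPM against 0, 1.76 and 0 CPM. Ptn and Prlr were lowest, and Wfdc18 highest, in PBS replicate 1.

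Each marker was then left out of the choice in turn, which gives its value in cells that it did not select. The other epithelial cells of this check had under 3 UMIs of the remaining markers, with no limit on the marker left out. They could thus include luminal cells that this marker had chosen. With at least 3 UMIs of the other markers, Prlr was found in 73.6% of 72 cells, against 1.28% of other epithelial cells. Ptn was found in 79.6% of 54 cells, against 3.09%, and Clca3a2 in 30.7% of 75 cells, against 0.234%. Wfdc18 was found in 15.4% of 65 cells, against 2.31% of other epithelial cells and 0.334% of the remaining cells. Selected cells were shallower than other epithelial cells throughout, with median depths of 866 to 1052 UMIs, against 1487 to 1519 UMIs. Wfdc18 was thus the marker found least often in cells that the others selected. It stood there at 1436, 670 and 117 CPM in PBS replicates 1, 2 and 3, against 111, 11.4 and 123 CPM in the comparison set. These values overlap, but that set took in luminal cells chosen by Wfdc18. In other epithelial cells as first defined, Wfdc18 stood at 0, 6.15 and 18.8 CPM.

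The luminal cells differed among themselves in Prlr and Wfdc18. In PBS libraries 46 cells had UMIs of Prlr and none of Wfdc18, 10 had Wfdc18 and no Prlr, 11 had both and 9 had neither. All 4 combinations occurred in every PBS library. The Prlr-only cells numbered 16, 11 and 19 in PBS replicates 1, 2 and 3, and the Wfdc18-only cells 3, 3 and 4. Since the rule sums the markers, a cell low in one needs more of another, and these counts are a description with no test.

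Genes that the rule did not use went with this split. Areg, which encodes amphiregulin, the epidermal growth factor receptor ligand that hormone-sensing cells release, had 282 UMIs in 35 of 46 Prlr-only cells (6144 CPM) and 0 UMIs in the 10 Wfdc18-only cells, where 3 UMIs would be 480 CPM. Cited1, a transcriptional co-regulator known from hormone-sensing luminal cells, had 34 UMIs in 20 Prlr-only cells (741 CPM) and 0 in Wfdc18-only cells. Pgr and Esr1, the progesterone and oestrogen receptor genes, had 11 and 7 UMIs in Prlr-only cells and 0 each in Wfdc18-only cells, which is too few to tell apart at this depth. In the other direction, Csn3, which encodes the milk protein kappa-casein, had 0 UMIs in Prlr-only cells, where 3 UMIs would be 65.4 CPM. It had 14 UMIs in 3 of 10 Wfdc18-only cells (2241 CPM), 11 of them in 1 cell of PBS replicate 3. Lcn2, which encodes the iron-binding lipocalin-2, had 1 UMI in the 46 Prlr-only cells (21.8 CPM) and 13 UMIs in 4 Wfdc18-only cells (2081 CPM). Elf5, a transcription factor of secretory luminal cells, had 0 UMIs in Prlr-only cells and 3 in Wfdc18-only cells. All its UMIs in luminal cells came from PBS replicate 2.

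The split held in each PBS library for Areg, with 95, 70 and 117 UMIs in Prlr-only cells of PBS replicates 1, 2 and 3 and none in Wfdc18-only cells of any of them. Csn3 had 0 UMIs in the Prlr-only cells of each library, and 2, 1 and 11 UMIs in the Wfdc18-only cells, from 1 cell in each library. Lcn2 came mostly from PBS replicate 1, with 11, 2 and 0 UMIs in Wfdc18-only cells. Ptn, itself one of the summed markers that chose the cells, stood at 16950 CPM in Prlr-only cells and 960 CPM in Wfdc18-only cells, which is a description of the choice. Krt8 differed little, at 7734 CPM in Prlr-only cells and 7043 CPM in Wfdc18-only cells. Wfdc18-only cells were shallower, with a median depth of 552.5 UMIs, against 906.5 UMIs in Prlr-only cells.

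**Figure D2:**
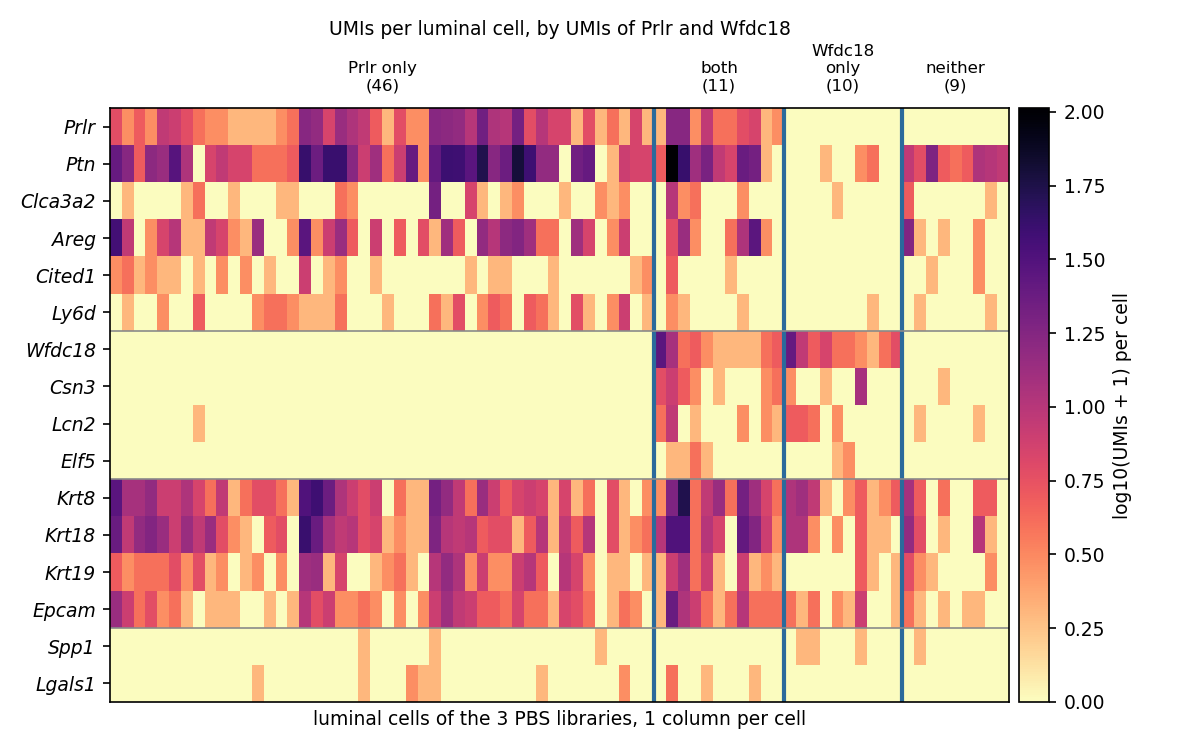
UMIs of 16 genes (rows) in each of the 76 luminal cells of the PBS libraries (columns), as log10(UMIs + 1), with the cells split by whether they carry Prlr and Wfdc18. Areg and Cited1 appear in 35 and 20 of the 46 Prlr-only cells and are blank in the Wfdc18-only block, where Csn3 and Lcn2 appear in 3 and 4 of 10 cells.

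Cells with both markers mixed these features. The 11 cells carried 62 UMIs of Areg and 24 UMIs of Csn3. One of them, in PBS replicate 2, was the deepest luminal barcode at 11669 UMIs and 3597 genes, against 3917 UMIs in the next, and held 46.0% of the UMIs of these 11 cells and 34.0% of all luminal UMIs of its library. It carried 102 UMIs of Ptn, 16 of Prlr, 11 of Wfdc18, 7 of Csn3, 8 of Lcn2 and 5 of Areg. Without it the other 10 cells still carried 57 UMIs of Areg in 6 cells and 17 UMIs of Csn3 in 6 cells. Over all 76 cells, 43 had Areg or Cited1 without Csn3 or Lcn2, 9 had Csn3 or Lcn2 without Areg or Cited1, 9 had both and 15 had neither. Whether cells with both are pairs of cells under 1 barcode was not tested.

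The 1 luminal cell of FVIO-MHT tumours was of the Prlr kind. It had 2616 UMIs and 1251 genes, deeper than 818 to 874.5 UMIs, the medians of the PBS libraries. It carried 33 UMIs of Ptn, 3 of Prlr, 2 of Clca3a2 and 0 of Wfdc18, with 9 UMIs of Areg and 1 of Cited1. It carried 63 UMIs of the 4 epithelial genes and none of Spp1, Lgals1 or S100a4. With 1 cell, no level in luminal cells can be compared between FVIO-MHT and PBS tumours.

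The luminal cells were next compared with other epithelial cells of the same PBS libraries, over UMI sums per library and edgeR's quasi-likelihood test with library as a block. The sums rested on 76 luminal cells with 84046 UMIs and 855 other epithelial cells with 1621543 UMIs. Of 1971 genes tested, 22.8% passed an adjusted p of 0.05, namely 215 higher in luminal cells (10.9%) and 235 lower (11.9%). The median log2 fold change over all genes tested was -0.09. A gene with almost no UMI in 1 of the sets passed the filter on low counts only through the other, which fixed its direction, so counts over tested genes are a description. Without the barcodes above the 95th percentile of UMIs of their library, 119 genes were higher and 120 lower among 1045 tested, and without PBS replicate 2, 110 were higher and 122 lower. The markers were taken from the leading genes of these same cells, so the test shows only whether a difference repeats over the 3 PBS libraries. Between PBS replicates 2 and 3, 33 cell barcodes were shared, with a median correlation of 0.497 between the profiles of a shared barcode, against 0.212 between different barcodes. None of them was a luminal cell and 22 were other epithelial cells, and without all shared barcodes 189 genes were higher and 192 lower.

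The 15 genes highest in luminal cells outside the rule had varied known roles, and of them only Cited1 is on the hormone-sensing list. Cited1 stood at 754, 495 and 316 CPM in luminal cells of PBS replicates 1, 2 and 3, against 0, 0.878 and 0 CPM in other epithelial cells, where it had 1 UMI in all. Its ratio of pooled CPM was 810 (95% counting interval 138 to 32759). Upk3a, which encodes a uroplakin, a membrane protein best known from the bladder, had 21 UMIs in luminal cells and 0 in other epithelial cells, so it was at least 135-fold higher against a floor of 3 counts over the group. Like all 15 of these genes, both passed the filter on low counts only through luminal cells. That fixed the direction of the 15, and no p is given for them. Krt6a, an inducible keratin, stood at 707, 408 and 175 CPM in luminal cells, against 0, 0.878 and 0 CPM in other epithelial cells (ratio 656, counting interval 110 to 26662). Stc2, which encodes the secreted glycoprotein stanniocalcin-2, stood at 236, 233 and 632 CPM in luminal cells, against 3.10, 0.878 and 6.25 CPM. The 15 genes were picked among those whose values did not overlap between the cell sets, so their separation is not a result.

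Genes of these 15 with more counts gave tighter estimates, though they too passed the filter on low counts only through luminal cells. F3, which encodes tissue factor, the cell-surface starter of blood clotting, stood at 2402, 816 and 4281 CPM in luminal cells, against 65.0, 9.66 and 62.5 CPM in other epithelial cells (log2 fold change 5.81 ± 0.35 SE). Xist, the noncoding RNA that coats the inactive X chromosome of female cells, stood at 707, 1020 and 982 CPM in luminal cells, against 6.20, 8.78 and 62.5 CPM in other epithelial cells (5.75 ± 0.49). Remaining cells of PBS replicates 1, 2 and 3, neither epithelial nor skin, had 323, 243 and 352 CPM of Xist. A Xist UMI was found in 47 of 76 luminal cells, and the luminal cell of FVIO-MHT replicate 2 had 8. Ly6d, a surface protein used to mark luminal and lymphoid subsets, stood at 848, 291 and 1579 CPM in luminal cells, against 0, 7.90 and 12.5 CPM (6.43 ± 0.54). Fam25c, Hid1, Fgg, Cd200, Tspan13, Hspb1, Trp53inp1 and Vill completed the 15 highest genes.

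The hormone-sensing list had 16 genes, of which 4 passed the filter on low counts, 2 were higher and none was lower. Over all 1971 genes tested, 10.9% were higher and 11.9% lower, and the counts of this and every later list stand beside those shares. Areg stood at 5322, 2739 and 5544 CPM in luminal cells of PBS replicates 1, 2 and 3, against 486, 264 and 388 CPM in other epithelial cells, a log2 fold change of 3.54 ± 0.27 (edgeR adjusted p = 1.13e-34). Luminal levels of Areg were above those of other epithelial cells in all 3 libraries, and Cited1, which passed the filter only through luminal cells, was the other gene called. The calcium-binding protein gene S100a6 gave -0.01 ± 0.24 (adjusted p = 0.986) and Ly6a, a surface antigen of stem and progenitor subsets, gave -0.63 ± 0.35 (adjusted p = 0.206). Below the filter, Pgr had 19 UMIs in luminal cells and 1 in the larger set of other epithelial cells (ratio of pooled CPM 367, counting interval 58.3 to 15231). Tbx3, a T-box factor of mammary development, had 18 and 0 UMIs, at least 116-fold higher, and Wnt4, a signal that progesterone induces, had 12 and 1 (ratio 232, interval 34.3 to 9897). Esr1 had 14 UMIs in luminal cells (167 CPM) and 26 in other epithelial cells (16.0 CPM). These genes were not tested, and 3 of the 16 had no UMI in luminal cells.

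The secretory progenitor list had 16 genes, of which 5 were tested, 4 were higher and none was lower, with a median log2 fold change of 3.27. Plet1, a surface protein of luminal progenitors, stood at 1931, 1399 and 1895 CPM in luminal cells, against 105, 122 and 407 CPM in other epithelial cells (3.27 ± 0.31, edgeR adjusted p = 3.34e-24). Csn3 stood at 330, 466 and 561 CPM, against 0, 4.39 and 169 CPM (4.26 ± 0.55), and Ltf, which encodes lactoferrin, at 188, 554 and 105 CPM, against 0, 7.90 and 100.1 CPM (4.00 ± 0.67). Most UMIs of both genes in other epithelial cells came from PBS replicate 3, the library with the highest marker level in barcodes under 200 genes, and the part of free RNA was not tested. Without that library the log2 fold changes were 6.86 for Csn3 and 6.20 for Ltf. Mfge8, the gene of a milk fat globule protein, was higher by 1.57 ± 0.43 and lost its call without PBS replicate 2 (0.79). Mfge8 passed the filter on low counts only through luminal cells, and no p is given for it. Lcn2 overlapped between the sets, at 754, 321 and 211 CPM in luminal cells, against 1028, 221 and 407 CPM (-0.27 ± 0.36, adjusted p = 0.681). Without PBS replicate 2, 4 genes of the list were tested and 2 were higher.

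Most milk genes other than Csn3 had few UMIs. Of 16 genes on the list, 11 had no UMI in luminal cells, among them the casein genes Csn1s1 and Csn2 and the whey acidic protein gene Wap, for which 3 UMIs would be 35.7 CPM. Lalba, which encodes the lactose synthase subunit alpha-lactalbumin, had 6 UMIs in luminal cells (71.4 CPM) and 3 in other epithelial cells (1.85 CPM). Plin2, which encodes a lipid droplet coat protein, had 9 UMIs in luminal cells (107 CPM) and 110 in other epithelial cells (67.8 CPM). Gapdh, a glycolytic gene that cells generally use, also had 0 UMIs in luminal cells and 43 in other epithelial cells, so a count of 0 in these libraries is not read as absence. In the secretory pathway list, 0 of 10 tested genes were called by edgeR and 0 by DESeq2, with a median log2 fold change of -0.18. At an unadjusted p under 0.05, edgeR had 1 of them, the signal peptidase gene Spcs2 (1.00 ± 0.43, adjusted p = 0.0839), and DESeq2 had 0. The chaperone gene Calr gave -0.15 ± 0.30 (adjusted p = 0.808) and overlapped between the sets. Pdia3 (-0.33 ± 0.33, adjusted p = 0.548) and Pdia6 (-0.63 ± 0.37, adjusted p = 0.245), which encode disulphide isomerases, were not called, although their values in luminal cells lay below all those in other epithelial cells.

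Prlr was high, but most genes of its pathway had few UMIs. Of 14 prolactin and STAT5 signalling genes, 5 were tested, 1 was higher and 2 were lower, against 10.9 and 11.9% over all genes tested. Stat3, a STAT factor active in the involuting gland, stood at 377, 466 and 526 CPM in luminal cells, against 146, 175 and 138 CPM in other epithelial cells (1.57 ± 0.43, edgeR adjusted p = 0.00237), a call that ended without PBS replicate 3 (1.24, adjusted p = 0.144). Ccnd1, which encodes cyclin D1, was lower, at 94.2, 262 and 140.3 CPM in luminal cells, against 2348, 1532 and 1445 CPM (-3.29 ± 0.38). Ccnd1 passed the filter on low counts only through other epithelial cells, and no p is given for it. Igf1r, the insulin-like growth factor receptor gene, was lower by -1.86 ± 0.70. It passed the filter only through other epithelial cells, so no p is given, and it lost its call without PBS replicate 2 (-1.28) or 3 (-2.01). Jak2 gave -1.38 ± 0.58 (adjusted p = 0.0697). Stat5a and Stat5b had 6 and 3 UMIs in luminal cells, and Cish, a feedback inhibitor that STAT5 induces, had 12 (143 CPM), against 70 UMIs (43.2 CPM) in other epithelial cells.

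Receptor genes for pleiotrophin gave no single direction. Of 10 receptor genes and relatives, 3 were tested, 5 had no UMI in luminal cells, 1 was higher and 2 were lower. Sdc4, which encodes the cell-surface proteoglycan syndecan-4, stood at 3485, 1049 and 1719 CPM in luminal cells, against 1047, 625 and 644 CPM in other epithelial cells (1.31 ± 0.27, edgeR adjusted p = 3.16e-05). Its call ended without PBS replicate 3 (1.08, adjusted p = 0.0536). Ncl, which encodes nucleolin, was lower by -1.11 ± 0.26 (adjusted p = 0.00019), and its call also ended without PBS replicate 3 (-0.98, adjusted p = 0.0906). Sdc1, the syndecan-1 gene, overlapped between the sets at 330, 29.1 and 70.2 CPM in luminal cells, against 316, 335 and 300.2 CPM in other epithelial cells. It gave -1.40 ± 0.53 and lost its call without PBS replicate 2 (-0.79) or 3 (-1.34). Sdc1 passed the filter on low counts only through other epithelial cells, and no p is given for it. Without PBS replicate 3 none of the 3 was called. The receptor phosphatase gene Ptprz1 had 1 UMI in each set and the receptor kinase gene Alk had none.

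Keratin and junction genes outside the rule were higher in luminal cells. Of 16 genes, 4 belong to the definition of other epithelial cells, 8 were tested, 7 were higher and none was lower, with a median log2 fold change of 2.33. The tight-junction gene Cldn4 stood at 4616, 2652 and 1614 CPM in luminal cells, against 177, 395 and 356 CPM in other epithelial cells (3.20 ± 0.29, edgeR adjusted p = 1.33e-25). Cldn7 gave 3.71 ± 0.43 and Cldn3 gave 2.76 ± 0.58. These claudin genes passed the filter on low counts only through luminal cells, and no p is given for them. Cdh1, which encodes E-cadherin, was higher by 2.00 ± 0.40 (adjusted p = 1.13e-05), but its call ended without PBS replicate 1 (1.29, adjusted p = 0.0689). Gata3, a transcription factor of luminal identity, overlapped between the sets at 94.2, 466 and 211 CPM in luminal cells, against 186, 189 and 219 CPM (0.42 ± 0.47, adjusted p = 0.602). Leaving out PBS replicate 1, 2 or 3 left 5 of the 8 genes called each time.

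**Figure D3:**
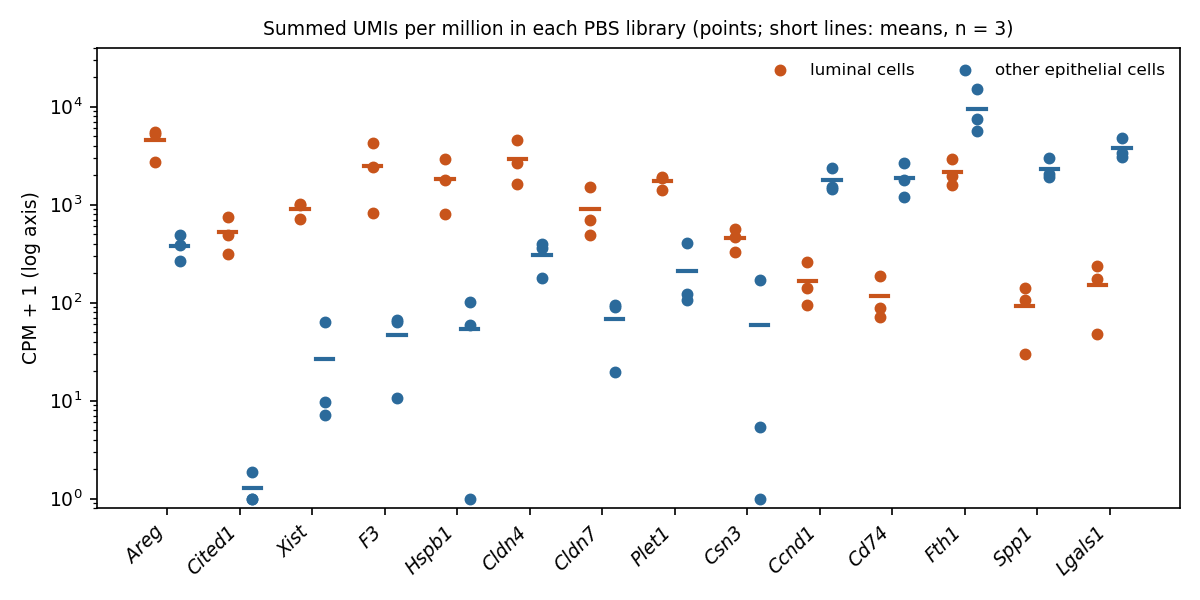
CPM of summed UMIs (CPM + 1, log axis) of 14 genes in luminal cells and in other epithelial cells of PBS replicates 1, 2 and 3. Points are libraries and short lines are means over the 3 libraries. Areg lies between 2739 and 5544 CPM in luminal cells, above all 3 values of other epithelial cells, and Lgals1 lies between 47.1 and 233 CPM, below all 3.

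Genes of 4T1 tumour cells were mostly lower in luminal cells. Of 16 genes on that list, 14 were tested, 8 were lower and 1 was higher, with a median log2 fold change of -2.39. Lgals1, which encodes galectin-1, stood at 47.1, 233 and 175 CPM in luminal cells, against 3054, 3390 and 4810 CPM in other epithelial cells (-4.54 ± 0.37). Spp1, which encodes osteopontin, stood at 141, 29.1 and 105 CPM in luminal cells, against 1936, 2999 and 2051 CPM (-4.78 ± 0.43). Vim, which encodes the mesenchymal filament vimentin, stood at 0, 0 and 281 CPM in luminal cells, against 3156, 1469 and 2108 CPM (-4.54 ± 0.42). All its luminal UMIs thus came from PBS replicate 3. Of these 8 UMIs, 6 sat in 2 barcodes with no UMI of Krt8, Krt18, Krt19 or Epcam. Lgals1, Spp1 and Vim passed the filter on low counts only through other epithelial cells, and no p is given for them. S100a4, a gene linked to metastasis, had 1 UMI in luminal cells and 1230 in other epithelial cells, a ratio of 63.8 in favour of the other epithelial cells (counting interval 11.4 to 2520.1). The gene that was higher was Krt6a, and the genes that were not called were S100a6, Csf3, Tm4sf1, Ly6e and Anxa1. Without PBS replicates 1, 2 and 3 in turn, 7, 7 and 6 genes were lower.

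The 10 genes lowest in luminal cells had no UMI there at all. A count of 0 allows up to 35.7 CPM over the 76 cells, and against that floor Ankrd1, a stretch-responsive nuclear protein gene, was at least 12.0-fold lower, with 465, 432 and 325 CPM in other epithelial cells. Hmga2, an oncofetal chromatin protein gene, was at least 11.3-fold lower, and Nt5e, which encodes the ecto-enzyme CD73, at least 9.40-fold lower. Tmprss11e was at least 7.77-fold lower and Ank at least 7.50-fold. Fbln2, Oaf, Fut8, Pfkl and Fxyd5 had bounds between 3.32-fold and 5.27-fold. All 10 passed the filter on low counts only through other epithelial cells, which fixed their direction, and no p is given for them.

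Antigen presentation genes were lower in luminal cells. Of 7 MHC class II genes, 6 were tested and 5 were lower, with a median of -3.62. Cd74, the class II invariant chain gene, stood at 188, 87.4 and 70.2 CPM in luminal cells, against 1189, 1805 and 2652 CPM in other epithelial cells (-4.09 ± 0.42). H2-Ab1, a class II chain gene, was lower by -3.91 ± 0.51. Both genes passed the filter on low counts only through other epithelial cells, and no p is given for them. Of 12 class I genes, 11 were tested and 8 were lower, with a median of -1.56. B2m, the class I light chain gene, stood at 3109, 1078 and 1053 CPM in luminal cells, against 6201, 5507 and 6823 CPM (-1.98 ± 0.27, edgeR adjusted p = 5.25e-12). H2-D1 gave -1.56 ± 0.25 (adjusted p = 1.07e-08). The class I count was 8, 4 and 3 genes without PBS replicates 1, 2 and 3, and H2 genes are near-identical copies whose reads the counting could split. The interferon-induced Bst2 (-3.02 ± 0.47) and Ifitm3 (-1.70 ± 0.34, adjusted p = 9.61e-06) were lower too, among 3 of 4 interferon genes tested. For Bst2, which passed the filter only through other epithelial cells, no p is given.

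Markers of immune, stromal, vascular and blood cells summed to at most 667 CPM in either set. The macrophage list, summed per library, was 0, 321 and 596 CPM in luminal cells, against 15.5, 121 and 144 CPM in other epithelial cells, with 4 of 10 genes at 0 UMIs in luminal cells. The rule limits 3 of these genes, and without them the sums were 0, 233 and 596 CPM, against 15.5, 97.5 and 113 CPM. The lymphocyte list was 47.1, 29.1 and 0 CPM, against 12.4, 1.76 and 31.3 CPM, with 5 of its 7 genes in the matrix at 0. The fibroblast list was 47.1, 58.3 and 667 CPM, against 424, 252 and 450.3 CPM, so luminal cells of PBS replicate 3 carried most of it. The rule limits 2 fibroblast genes, and without them the sums were 47.1, 29.1 and 561 CPM, against 424, 243 and 375 CPM. The neutrophil list was 330, 29.1 and 491 CPM, against 269, 38.6 and 256 CPM. The endothelial list was 236, 117 and 386 CPM, against 136, 134 and 150.1 CPM, the pericyte and smooth muscle list 47.1, 58.3 and 140.3 CPM, against 34.1, 18.4 and 25.0 CPM, and the adipocyte list 0, 0 and 175 CPM, against 6.20, 5.27 and 68.8 CPM. The erythroid list was 94.2, 29.1 and 35.1 CPM, against 3.10, 0 and 68.8 CPM. In luminal cells, 6 of these lists, all but the lymphocyte and erythroid ones, summed highest in PBS replicate 3, and their part in the results was not tested.

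Markers of skin and skin glands were present in luminal cells too. The skin keratinocyte list summed to 1790, 845 and 1439 CPM in luminal cells, against 291, 325 and 619 CPM in other epithelial cells, with 4 of 12 genes at 0 UMIs in luminal cells. Without the 4 genes the rule limits, the sums were 1743, 845 and 1158 CPM, against 291, 270 and 482 CPM. Of 2 genes tested, 1 was higher, namely Sfn, which encodes the epithelial 14-3-3 sigma protein (2.40 ± 0.33, edgeR adjusted p = 1.63e-11). The sweat and sebaceous gland list summed to 942, 903 and 561 CPM in luminal cells, against 208, 219 and 425 CPM in other epithelial cells, with 3 of 8 genes at 0. Both of its tested genes were higher, with a median log2 fold change of 3.29. The water channel gene Aqp5 stood at 141, 321 and 351 CPM in luminal cells, against 3.10, 8.78 and 25.0 CPM (4.71 ± 0.67). It passed the filter on low counts only through luminal cells, and no p is given for it. Mgst1, which encodes a microsomal glutathione transferase, overlapped between the sets at 659, 525 and 175 CPM in luminal cells, against 71.2, 102 and 238 CPM (1.87 ± 0.43). It lost its call without PBS replicate 1 (1.25) or 2 (1.49). Mgst1 also passed the filter only through luminal cells, and no p is given for it. The part of skin gland cells in the results was not tested.

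Glycolysis genes were mostly lower in luminal cells, and iron and antioxidant genes were mixed. Of 12 tested glycolysis and hypoxia genes, 10 were lower and 1 was higher, with a median of -1.54, and 6, 3 and 6 were lower without PBS replicates 1, 2 and 3. Pkm, which encodes pyruvate kinase, stood at 565, 233 and 421 CPM in luminal cells, against 1078, 809.6 and 994 CPM in other epithelial cells (-1.31 ± 0.34, edgeR adjusted p = 0.00121). Eno1, which encodes enolase, gave -2.82 ± 0.66, with no p given because it passed the filter only through other epithelial cells. The hypoxia-responsive Ndrg1 gave -1.48 ± 0.40, also with no p given, for the same reason. Fth1, the ferritin heavy chain gene that stores iron, stood at 1978, 1603 and 2947 CPM in luminal cells, against 15162, 5684 and 7561 CPM (-2.02 ± 0.26, adjusted p = 3.6e-13). Of 9 tested iron and antioxidant genes, 4 were lower and 2, the metallothionein genes Mt1 and Mt2, were higher. Ftl1, the ferritin light chain gene (-0.88 ± 0.31, adjusted p = 0.0245), lost its call without any 1 of the 3 libraries (adjusted p = 0.132, 0.0543 and 0.0785 without PBS replicates 1, 2 and 3). In the same order, 2, 1 and 1 genes of that list were lower, and Mt1 lost its call without PBS replicate 2 (0.78, adjusted p = 0.147) or 3 (0.16, adjusted p = 0.892). Mt2 lost its call likewise (0.75 and 0.56, adjusted p = 0.149 and 0.443). Mitochondrially encoded genes, of which 6 were tested, 0 were called by edgeR and 0 by DESeq2, had a median of -0.27, with 1 gene in edgeR and 0 in DESeq2 at an unadjusted p under 0.05.

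Cell-cycle genes were sparse in luminal cells, and 6 of 16 had no UMI. Of 5 tested, 2 were lower, against 11.9% over all genes tested. Top2a, which encodes the topoisomerase of dividing cells, stood at 283, 29.1 and 211 CPM in luminal cells, against 839, 770.1 and 719 CPM in other epithelial cells (-2.31 ± 0.42). It lost its call without the deepest barcodes of each library. The proliferation marker Mki67 overlapped between the sets, at 424, 29.1 and 281 CPM in luminal cells, against 217, 292 and 369 CPM (-0.45 ± 0.48, edgeR adjusted p = 0.582). The other gene called, the tubulin gene Tubb5 (-1.49 ± 0.43), lost its call without PBS replicate 2 (-0.93) or 3 (-1.21) and gave -3.15 without PBS replicate 1. Top2a and Tubb5 passed the filter on low counts only through other epithelial cells, and no p is given for them.

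Protective proteins of mucosal surfaces split. Of 6 tested antimicrobial genes, 3 were higher and 1 was lower, against 10.9 and 11.9% over all genes tested. Slpi, a secreted protease inhibitor, stood at 94.2, 29.1 and 0 CPM in luminal cells, against 2899, 529 and 838 CPM in other epithelial cells. It passed the filter on low counts only through other epithelial cells, and no p is given for it. With 3 UMIs in luminal cells, the ratio of pooled CPM was 28.9 in favour of the other epithelial cells (counting interval 9.87 to 140.3). Clu, which encodes the extracellular chaperone clusterin, was higher by 1.56 ± 0.30 (edgeR adjusted p = 5.14e-06), and Cd24a, a surface glycoprotein used to sort luminal cells, by 1.87 ± 0.35 (adjusted p = 2.88e-06).

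**Figure D4:**
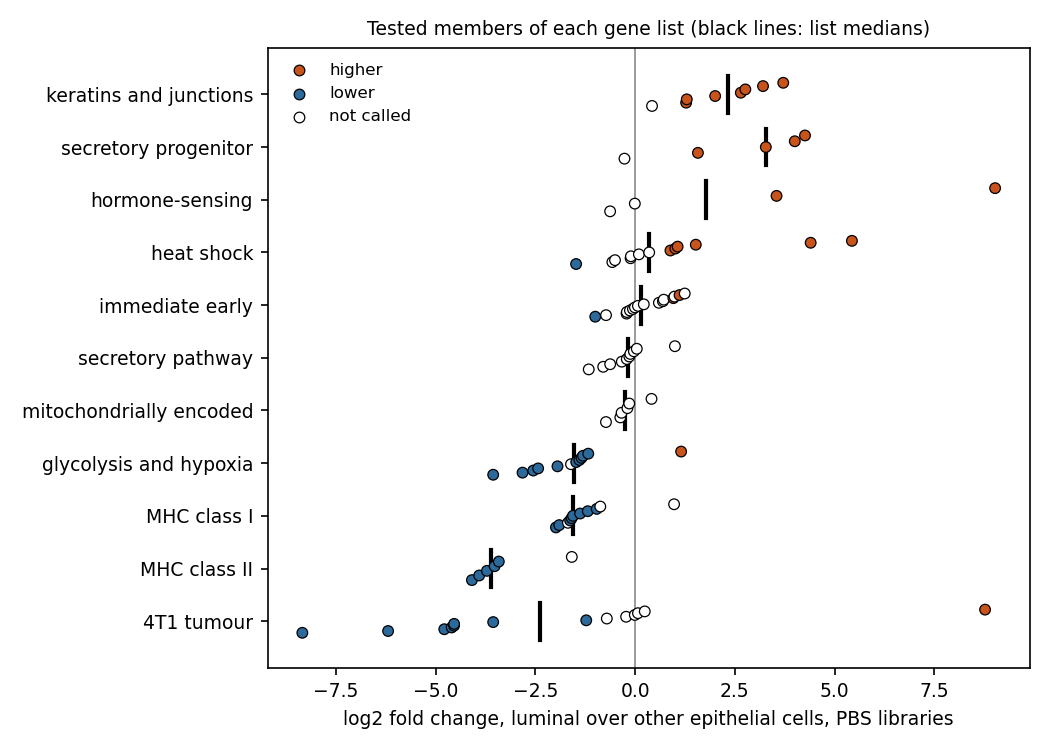
Log2 fold change of luminal over other epithelial cells in PBS libraries for the tested genes of 11 lists. Orange points were higher, blue points lower and white points not called at an adjusted p of 0.05, and black lines are list medians. Medians of the lists shown run from 3.27 for secretory progenitor genes to -3.62 for MHC class II genes. Fitted values of genes without a UMI in 1 set, such as Fxyd5 at the far left, depend on the prior count.

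Heat-shock genes were mixed. Of 13 tested, 6 were higher and 1 was lower, with a median of 0.35, and 2 were higher without PBS replicate 2 or 3. Hspb1, which encodes the small heat-shock protein HSP27, stood at 801, 2914 and 1789 CPM in luminal cells, against 0, 58.0 and 100.1 CPM in other epithelial cells (5.43 ± 0.36). It passed the filter on low counts only through luminal cells, and no p is given for it. Hspa1a, which encodes the inducible HSP70, stood at 188, 4750 and 2175 CPM in luminal cells, against 12.4, 86.1 and 300.2 CPM in other epithelial cells (4.40 ± 0.37). Hspa1a too passed the filter only through luminal cells, and no p is given for it. Its neighbour Hspa1b stood at 330, 7461 and 4070 CPM, against 177, 3034 and 3052 CPM (0.88 ± 0.28, edgeR adjusted p = 0.00862). That call ended without PBS replicate 2 (0.55, adjusted p = 0.411) or 3 (1.04, adjusted p = 0.114). Both genes were lowest in PBS replicate 1 in either set of cells. The abundant chaperone genes Hsp90ab1 (-0.11 ± 0.23, adjusted p = 0.807) and Hspa5 (0.09 ± 0.24, adjusted p = 0.856) were not called.

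Hspa1a and Hspa1b lie beside each other, at chr17:34969190-34972156 and chr17:34956436-34959238 on the minus strand of GRCm38, and encode near-identical proteins, so reads can be split between them and their single levels are uncertain. Their split nevertheless differed between luminal and other epithelial cells of the same library in PBS replicates 2 and 3. Hspa1a held 36.4% (4 of 11 UMIs, 10.9 to 69.2%), 38.9% (34.2 to 43.8%) and 34.8% (27.9 to 42.3%) of their joint UMIs in luminal cells of PBS replicates 1, 2 and 3. In other epithelial cells it held 6.56% (1.82 to 15.9%), 2.76% (2.24 to 3.35%) and 8.96% (6.68 to 11.7%). The intervals did not overlap in PBS replicates 2 and 3 but did in PBS replicate 1. They cover UMI counting only and treat UMIs of the same cell as independent. In PBS replicate 2, 1 barcode held 34.0% of all luminal UMIs. Remaining cells, without those with keratinocyte genes, had 23.2% (16.7 to 30.7%), 27.2% (25.6 to 28.8%) and 39.0% (36.2 to 41.9%), which overlapped the luminal intervals in PBS replicates 1 and 3 and lay below them in PBS replicate 2. Cells with keratinocyte genes had 6.56% in PBS replicate 2 and 38.4% in PBS replicate 3, and other epithelial cells of FVIO-MHT replicates 2 and 3 had 0.870 and 0.719%.

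**Figure D5:**
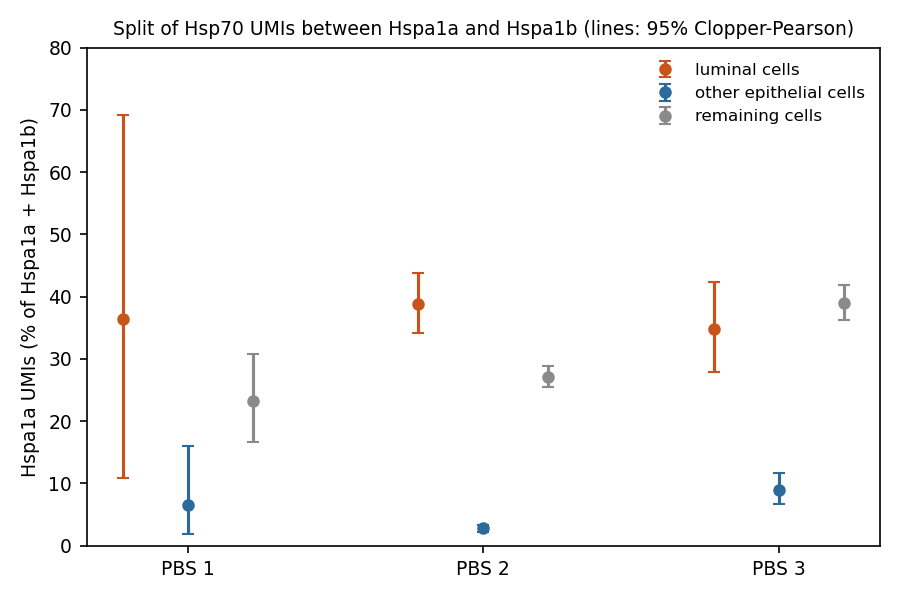
Hspa1a as a percentage of the UMIs of Hspa1a and Hspa1b in luminal cells, other epithelial cells and remaining cells of PBS replicates 1, 2 and 3, with 95% Clopper-Pearson intervals. Luminal cells lie between 34.8 and 38.9%, and other epithelial cells between 2.76 and 8.96%.

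Immediate early genes, which dissociation is known to induce, gave no single direction. Of 16 tested, 2 were higher and 1 was lower, with a median of 0.14. Over all genes tested, 10.9% were higher and 11.9% lower, so these counts set the list little apart. Jun stood at 3627, 8568 and 3789 CPM in luminal cells, against 3782, 4371 and 4666 CPM in other epithelial cells (0.22 ± 0.24, edgeR adjusted p = 0.613), and Fos gave -0.13 ± 0.26 (adjusted p = 0.801). Klf6, a zinc-finger factor gene, was higher by 1.11 ± 0.26 (adjusted p = 0.000295) and lost its call without PBS replicate 2 (0.90, adjusted p = 0.0601). Egr1 was higher by 0.96 ± 0.26 (adjusted p = 0.00208) and lost its call without PBS replicate 2 (0.73, adjusted p = 0.152) or 3 (0.68, adjusted p = 0.308). Ier3 stood at 424, 1253 and 1298 CPM in luminal cells, against 1976, 1924 and 1951 CPM in other epithelial cells, so it was lower in each library (adjusted p = 0.00349), and it lost its call without PBS replicate 1 (-0.65, adjusted p = 0.133).

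Cells with keratinocyte genes gave another epithelial comparison in PBS replicate 3 alone. The 38 such cells there had 1912 CPM of Krt1, 1687 CPM of Krt10 and 2952 CPM of Krt14, which are skin keratin genes, and 253 CPM of Spp1. The 18 in PBS replicate 2 had no UMI of Krt1 or Krt10 and 372 CPM of Krt14, with 2919 CPM of Spp1 and 3017 CPM of Lgals1, close to the 2999 and 3390 CPM of other epithelial cells of that library. Their markers go against the name of keratinocytes, and they are not compared here. Ptn stood at 17438 CPM in luminal cells of PBS replicate 3, against 197 CPM in its keratinocytes. Krt8 stood at 5859 CPM in luminal cells, against 112 CPM in keratinocytes, and Krt19 at 3684 CPM, against 0 CPM. Cited1, Upk3a and Stc2 had no UMI in these keratinocytes. Several other genes of the highest 15 were shared with skin, where Krt6a stood at 175 CPM in luminal cells and 422 CPM in keratinocytes, Fam25c at 1053 and 506 CPM, and Ly6d at 1579 and 731 CPM. Sfn stood at 912 CPM in luminal cells and 1912 CPM in keratinocytes. Krt14 stood at 70.2 CPM in luminal cells. These values are a description with no test.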

How the data were processed

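For each of 6 Drop-seq libraries the authors deposited a matrix of raw UMI counts, with genes in rows and barcodes in columns, which per the submitters' processing notes were aligned with STAR 2.7.2b to mm10. How UMIs were counted, on which annotation and strand, and how barcodes were chosen is not stated in the sources used here. A matrix has 27998 gene rows and 5000 barcodes. The 65 rows that repeat a symbol, with identical counts, were dropped. Libraries held 678337 to 2207534 UMIs in all, and 332 to 2325 barcodes per library had at least 200 detected genes. No doublet caller was run, and an alternative left out barcodes above the 95th percentile of UMIs.

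UMI counts of luminal and of other epithelial cells were summed in each of the 3 PBS libraries and compared with edgeR 4.0.16 in R 4.3.3 (quasi-likelihood test, library as a block, TMM, filterByExpr, Benjamini-Hochberg over 1971 genes, adjusted p under 0.05). The 17 genes of the definitions were given no test. Both sums of a library come from the same cells' suspension, which is where the pairing comes from, and their deviations correlated by 0.13, 0.12 and 0.11 across genes. The labels do not tie libraries to different animals, and a p-value here measures only library-to-library spread, which may be technical. The fit was first tested on simulated data. It found 21 of 100 genes changed by a log2 fold change of 1 and 65 of 100 changed by 2, with 4 false calls. A gene that was not called may therefore still differ. CPM is UMIs per 1e6 UMIs of the same sum. Gene positions come from GENCODE on GRCm38, whose identifiers matched 27624 of 27933 genes. DESeq2 1.42.0 was an alternative.

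The members and the 30 gene lists were chosen with earlier results of these data known. Genes named are the 4 markers, the 15 with the highest and 10 with the lowest fold change among called genes whose values did not overlap, up to 4 genes with most UMIs per list, called list members and the 8 highest genes. Genes below the filter, values in keratinocytes, and Krt5, Krt15, Gapdh and Spcs2 were named after their values were seen.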

Additional observations from a re-analysis of the deposited data

How the results depend on the processing

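The difference in the share of luminal cells kept its direction under every alternative run, from -4.31 to -1.74 percentage points when 1 library was left out, and -3.16 points at 300 UMIs per cell. The counts of called genes, 215 higher and 235 lower, were less stable. They were 119 and 120 without barcodes above the 95th percentile of UMIs (fewer genes tested), 131 and 105 with DESeq2 and a replicate block, and 139 and 440 with no filter on low counts. Leaving out 1 PBS library gave 110 to 204 genes higher and 122 to 188 lower. The fit with no replicate block, which ignores the pairing by library, gave 172 and 174. Other gates, DESeq2 size factors and the removal of shared barcodes or of the deepest luminal barcode (both chosen after seeing the data) stayed within 1.5 times. Among single named genes, 1758 alternative values kept direction and call, 223 lost the call, 19 gained it and 1 reversed, namely Hsph1, from -0.14 (without PBS replicate 2, adjusted p = 0.940) to 1.40 (without PBS replicate 1), where the cause was not tested. The 84046 luminal UMIs limit what can be seen: a gene with 0 of them may stand at up to 35.7 CPM.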
